A study of Rattus norvegicus with 6 samples.

Results

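Proteins and RNA pass between nucleus and cytoplasm through the nuclear pore complex, a ring-shaped assembly of nucleoporins in the nuclear envelope. Transport receptors of the importin and exportin family carry cargo through the pore, and the small GTPase Ran gives the passage its direction: the exchange factor Rcc1 loads it with GTP in the nucleus, and Rangap1 with Ranbp1 has it hydrolyse GTP in the cytoplasm. Growing cells depend on this route because ribosomal proteins, histones and transcription factors enter the nucleus through it, while ribosomal subunits, tRNA and mRNA leave by it.

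The genes of this machinery were followed in primary Schwann cells, the glia of peripheral nerves, after stimulation with soluble neuregulin 1 (NRG1). Members were taken by gene symbol alone, as every row of the count tables whose symbol named a nucleoporin (Nup with a number, Ndc1, Pom121), an importin or transportin (Ipo, Kpna, Kpnb, Tnpo), an exportin (Xpo, Cse1l) or a Ran regulator (Ran, Rcc1, Rangap, Ranbp). This gave 49 of the 17327 genes. Some genes of these families, such as Nup133, Nup188, Nup50, Ipo5, Ipo8, Ipo11, Ranbp3 and Ranbp9, had no row under these symbols. The groups below are therefore not complete. Genes of the same machinery with other symbols were treated as a separate list. Cells came from sciatic nerves of adult Wistar rats. All cultures had been expanded in medium with forskolin, which raises cAMP, and a neuregulin (glial growth factor per the labels, recombinant NRG1β1 per the methods), and were then starved for 18 h in 2% serum with 10 μM forskolin. Mock cultures (n = 3) then received the ligand buffer and NRG1 cultures (n = 3) received 10 nM recombinant NRG1β1, both for 6 h in the same medium. The 3 pairs, numbered 1 to 3, came from 3 independent cell preparations.

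Between 6821590 and 15475018 reads were counted on genes per sample, and the 49 members held between 0.42% and 0.59% of them. Levels are given in CPM, a gene's count relative to the library total after TMM scaling, and are not corrected for transcript length, so that levels of different genes are not compared. The detection floor, set at 3 counts per sample, lay between 0.19 and 0.44 CPM. The cultures of pair 1 stood apart from the others. The summed level of 8 fibroblast markers was 53432 CPM in mock and 57725 CPM in NRG1 sample 1, against 13696 to 22338 CPM in the other 4 samples. Thy1, Dcn and Lum were at 0 counts in those 4 samples, while Thy1 reached 1268.4 and 1143.3 CPM in pair 1. Not every marker on the list differed in this way. Col1a1, which made up most of the sum in those 4 samples, was high in every sample, from 13413 to 32087 CPM. Fbln1 lay between 3.0 and 7.9 CPM, and Col1a2 did not exceed 0.225 CPM in any sample. The summed level of 7 Schwann cell markers was 5281 and 4416 CPM in mock and NRG1 sample 1 and 10985 to 13981 CPM in the others. Of these markers, S100b, Cdh19 and Mbp were lower with NRG1 (adjusted p not above 0.01). Cdh19 was at 192.9, 222.8 and 187.3 CPM in mock samples 1, 2 and 3, so in mock it did not set pair 1 apart. Macrophage markers summed to at most 10.6 CPM and endothelial markers to at most 15.2 CPM, and Ptprc, Cd163, Pecam1, Cdh5 and Emcn were at 0 in every sample. In such bulk RNA a larger number of expressing cells and more RNA per cell cannot be told apart, and the part that fibroblasts play in the levels of pair 1 was not tested.

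NRG1 raised the RNA of 12 nuclear transport genes and lowered none past the test. The 12 were the 4 genes of the Ran cycle (Ran, Rangap1, Rcc1, Ranbp1), the import receptors Ipo4, Ipo13 and Kpnb1, the import adaptor Kpna6, the tRNA exporter Xpot, and the nucleoporins Nup205, Nup93 and Nup43. Of the 49 members, 47 passed the filter on low counts and were tested with edgeR's quasi-likelihood test, with the pair as a block and Benjamini-Hochberg adjustment over all 9740 genes tested. The 12 called at an adjusted p of at most 0.01 were 25.5% of the members tested, against 6.31% of all genes called higher. Of all genes, 5.51% were called lower. No member was among them in edgeR, where 2 members were lower at an unadjusted p under 0.05, or in DESeq2, where 1 was. With a log2 fold change (log2FC, with its standard error, SE) over 1 also required, 3 members rose (Ipo4, Rangap1 and Ran), against 1.56% of all genes called higher and 1.91% called lower by both criteria. Ran left this group without pair 2. Without pair 1, the pair with the high fibroblast markers, 10 members were called higher and none lower, against 5.94% of all genes called higher and 6.05% lower. Without the block edgeR called none of the 9740 genes and so no member, with 18 members higher and 1 lower at an unadjusted p under 0.05. DESeq2 without the block called 3 members higher, Ipo13, Kpnb1 and Nup205, against 0.897% of the 12827 genes it tested, low-count genes included. Shares of all genes at an unadjusted p under 0.05 were not computed.

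Over all 47 tested members, the 12 called ones included, most lay above mock. The median log2FC of the 47 tested members was 0.31, from -0.56 to 1.14, whereas the median of all 9740 genes was -0.03. Of the members 40 (85.1%) were above 0, against 47.2% of all genes. The members' median log2 ratio was 0.21, 0.37 and 0.38 in pairs 1, 2 and 3. In 33 members (70.2%) the log2 ratio was above 0 in all 3 pairs, against 25.9% of all genes. It was below 0 in all 3 pairs in 2 members, Ranbp10 and Ranbp17, against 30.0% of all genes. Every NRG1 sample was above every mock sample in 25 members (53.2%), against 10.2% of all genes, and below in 1 member, Ranbp10, against 9.94%. These counts are descriptions and were not tested as a set.

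**Figure D1:**
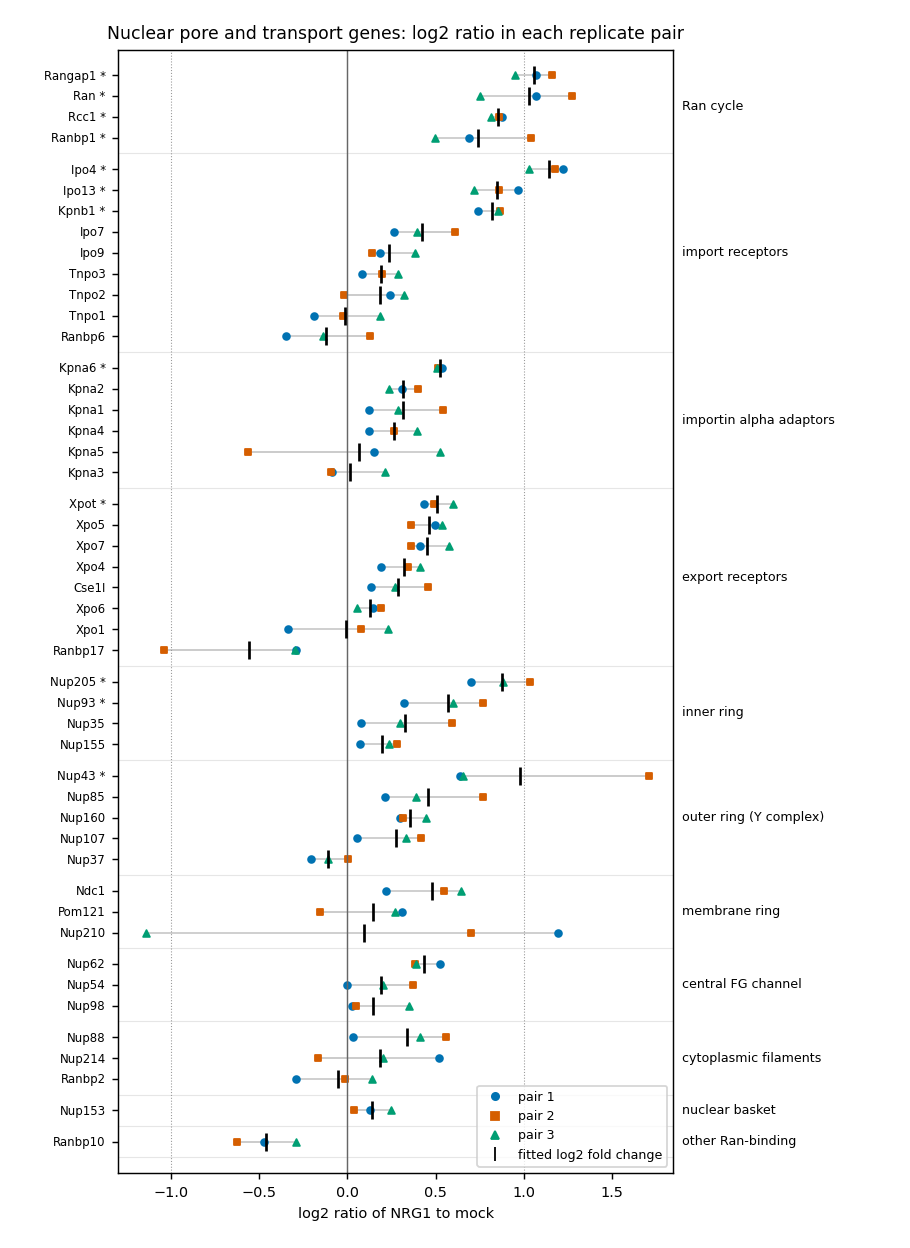
Log2 ratio of NRG1 to mock (x axis) for the 47 tested members, ordered by role and by fold change. Coloured symbols are the 3 replicate pairs, black ticks the fitted log2FC, dotted lines a log2 ratio of -1 and 1, and an asterisk marks an adjusted p of at most 0.01. All 4 Ran cycle genes lie to the right of 0 in each pair, while most pore components lie between 0 and 0.6.

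The 4 Ran cycle genes rose together, with fold changes between 1.67 and 2.09. Ran itself was at 168.4, 249.3 and 255.9 CPM in mock samples 1, 2 and 3 and at 353.4, 604.5 and 430.6 CPM in NRG1 samples 1, 2 and 3. Each NRG1 sample was above all mock samples, and NRG1 sample 2 was the highest. The log2FC was 1.03 (SE 0.13, edgeR adjusted p = 0.0001). Without pair 2 it was 0.91, still called but no longer over 1. Rangap1, which switches Ran off at the cytoplasmic face of the pore, was at 85.9, 139.4 and 178.9 CPM in mock and at 180.5, 312.4 and 345.5 CPM in NRG1 samples, a log2FC of 1.06 (SE 0.12, edgeR adjusted p = 3.7e-05). Its lowest NRG1 sample, from pair 1, exceeded the highest mock sample, from pair 3, by little, whereas within pairs the log2 ratios were 1.07, 1.16 and 0.95.

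Rcc1, which binds chromatin and recharges Ran with GTP, was counted at 12.2, 20.4 and 18.8 CPM in mock and 22.5, 37.2 and 33.3 CPM in NRG1 samples. The rise was nearly equal in the 3 pairs, with log2 ratios of 0.88, 0.86 and 0.82, and the log2FC was 0.86 (SE 0.14, edgeR adjusted p = 0.0007). Ranbp1, which helps Rangap1 release Ran from export complexes, was at 47.3, 56.1 and 52.4 CPM in mock and 76.4, 115.9 and 74.04 CPM in NRG1 samples. The groups did not overlap. Its log2FC was 0.74 (SE 0.13, edgeR adjusted p = 0.0012), and the log2 ratio of pair 2, 1.04, was the largest of the 3. Summed over the 4 genes, the level was 313.7, 465.2 and 506.1 CPM in mock and 632.8, 1070.0 and 883.4 CPM in NRG1 samples, so that the mock culture of pair 1 was the lowest and the NRG1 culture of pair 2 the highest.

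**Figure D2:**
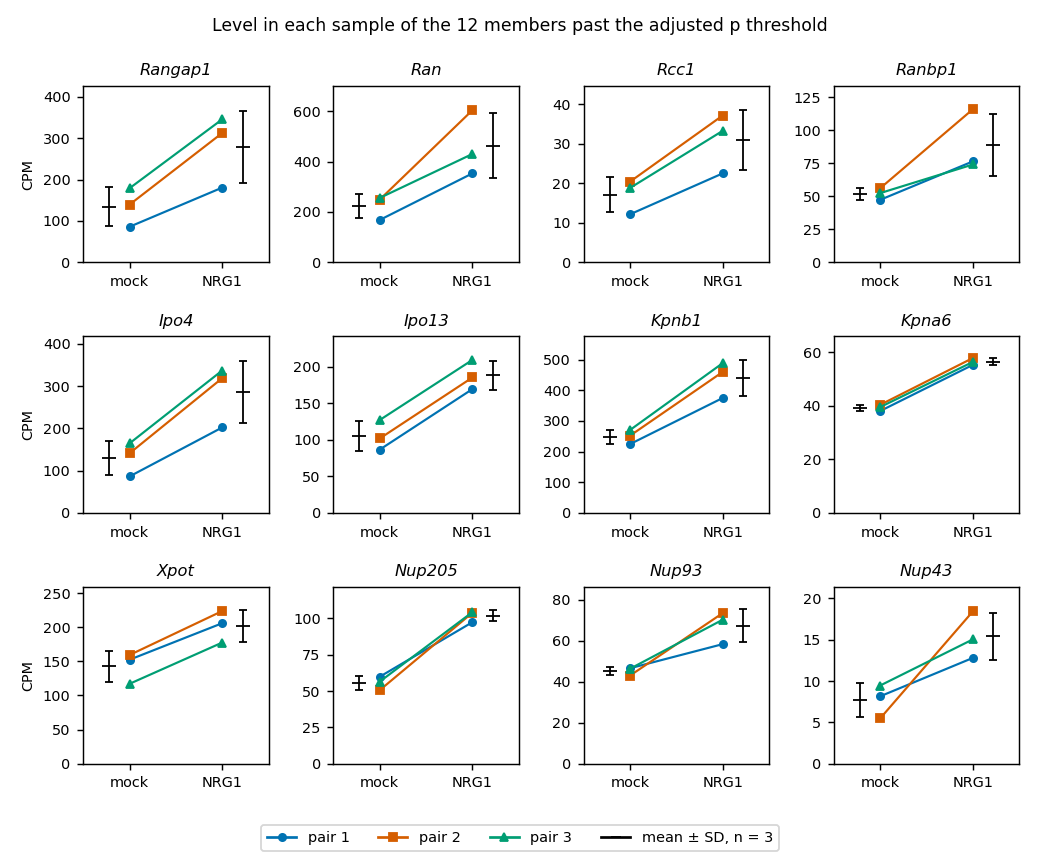
CPM (y axes, from 0) in mock and NRG1 samples of the 12 members at an adjusted p of at most 0.01. Lines join the samples of a pair, and bars beside them give the mean and SD over 3 samples. In each of the 12 genes all 3 NRG1 samples lie above all 3 mock samples.

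Of the 9 import receptors, 3 rose and the other 6 did not pass the test, against 6.31% of all genes called higher. Counts within a role were not tested as a set. Ipo4, a carrier of histones and ribosomal proteins, changed most of all members. It was at 86.5, 141.2 and 164.7 CPM in mock and 202.4, 319.1 and 337.2 CPM in NRG1 samples, a 2.21-fold rise (log2FC 1.14, SE 0.12, edgeR adjusted p = 2.2e-05), with log2 ratios of 1.23, 1.18 and 1.03 in the pairs. Ipo13, which carries cargo in both directions, went from 86.7, 102.0 and 127.2 CPM to 169.6, 185.4 and 209.5 CPM, a log2FC of 0.85 (SE 0.12, edgeR adjusted p = 0.0002). The groups of both genes were fully separated.

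Kpnb1 encodes importin beta, the receptor of the classical import route. It was at 224.5, 251.8 and 270.4 CPM in mock and 374.9, 459.9 and 488.5 CPM in NRG1 samples, and the log2FC of 0.82 (SE 0.12, edgeR adjusted p = 0.00028) was similar in the 3 pairs. Ipo7, a partner of importin beta, had a log2FC of 0.42 (edgeR adjusted p = 0.022) and stayed outside the threshold, as did Ipo9 with 0.24. Tnpo1, Tnpo2 and Tnpo3, the transportins for RNA-binding proteins such as hnRNP and splicing factors, had log2FCs of -0.01, 0.18 and 0.19, with SEs of 0.12 each. Ranbp6, a relative of importin 5, was at -0.12 (SE 0.13). The log2FC of the 9 receptors thus ranged from -0.12 to 1.14, with standard errors between 0.12 and 0.13.

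Importin alpha proteins read the classical import signal and hand the cargo to importin beta. Of the 6 genes, Kpna6 rose, from 38.1, 40.4 and 39.6 CPM in mock to 55.3, 57.9 and 56.4 CPM in NRG1 samples, a log2FC of 0.52 (SE 0.12, edgeR adjusted p = 0.0073). The samples of each group lay within 3 CPM of each other. With 6.31% of all genes called higher, 1 call among 6 genes is too small a count to describe the group. The call was lost without pair 1 (edgeR adjusted p = 0.037) and without pair 3 (edgeR adjusted p = 0.042), at log2FCs of 0.52 and 0.55, and in DESeq2 with the block (DESeq2 adjusted p = 0.013). Kpna2 had log2 ratios of 0.31, 0.40 and 0.24 in the pairs but a log2FC of only 0.32 (SE 0.16, edgeR adjusted p = 0.18), with 8.0, 16.6 and 15.1 CPM in mock and 10.0, 21.9 and 17.9 CPM in NRG1 samples. Pair 1 was the low one in both groups. Kpna1, Kpna4, Kpna5 and Kpna3 had log2FCs of 0.31, 0.26, 0.07 and 0.02, and none passed the test.

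Among the 8 export receptors, Xpot was the one called. With 6.31% of all genes called higher, this is likewise too small a count to describe the group. Xpot, the exporter of tRNA, was at 152.3, 159.2 and 117.0 CPM in mock and 205.8, 223.6 and 177.5 CPM in NRG1 samples, a log2FC of 0.51 (SE 0.12, edgeR adjusted p = 0.0063). NRG1 sample 3, the lowest of its group, was still above the highest mock sample. Without pair 1 or pair 3 it missed the threshold (edgeR adjusted p of 0.015 and 0.064), at log2FCs of 0.55 and 0.48. Xpo5, which exports precursors of microRNA, lay just outside the threshold with a log2FC of 0.47 (SE 0.12, edgeR adjusted p = 0.0102), and Xpo7 with 0.45 (SE 0.12, edgeR adjusted p = 0.0135). Both were called by DESeq2.

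Xpo1, the main exporter of proteins and of ribosomal subunits, was at 148.2, 121.3 and 104.7 CPM in mock and 117.3, 127.8 and 122.8 CPM in NRG1 samples. The groups overlapped and the log2 ratios of the pairs, -0.34, 0.07 and 0.23, differed in sign. Its log2FC was -0.01 (SE 0.13, edgeR adjusted p = 0.97) and turned positive without pair 1, at 0.16. Cse1l, which returns importin alpha to the cytoplasm, was at 104.8, 90.6 and 90.5 CPM in mock and 115.1, 124.3 and 109.3 CPM in NRG1 samples. These groups did not overlap, yet the log2FC of 0.29 (SE 0.12, edgeR adjusted p = 0.095) did not pass. Ranbp17, related to Xpo7, had the lowest log2FC of all members, -0.56 (SE 0.20, edgeR adjusted p = 0.054), and Xpo4 and Xpo6 had 0.32 and 0.13.

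Of the 21 genes of the pore itself, 3 rose, against 6.31% of all genes called higher. Another 16 were tested and not called, and Nup210l and Pom121l2 were not tested, with at most 10 and 2 counts per sample. Nup205 and Nup93, partners in the inner ring of the pore, were among the 3 that rose. Nup205 was at 59.9, 50.6 and 56.5 CPM in mock and 97.5, 104.0 and 104.4 CPM in NRG1 samples, a log2FC of 0.88 (SE 0.12, edgeR adjusted p = 0.0002). The gap between the groups was wider than the spread within either. Nup93 was at 46.5, 42.9 and 46.2 CPM in mock and 58.3, 73.4 and 70.2 CPM in NRG1 samples, with a log2FC of 0.57 (SE 0.13, edgeR adjusted p = 0.0061). It lost the call without pair 2 (log2FC 0.48, edgeR adjusted p = 0.016) and without pair 3 (0.57, edgeR adjusted p = 0.035). The other inner ring members, Nup35 and Nup155, had log2FCs of 0.32 and 0.20.

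In the outer ring, Nup43 had 61, 37 and 120 counts in mock and 96, 164 and 233 counts in NRG1 samples, or 8.2, 5.5 and 9.5 against 12.8, 18.4 and 15.0 CPM. Its log2FC of 0.98 (SE 0.22, edgeR adjusted p = 0.0056) rested in part on pair 2, whose log2 ratio was 1.71 against 0.64 and 0.66 in the other pairs. Without pair 2 it was 0.66 (edgeR adjusted p = 0.027), and DESeq2 with the block did not call it (DESeq2 adjusted p = 0.0114). In the GRCr8 annotation Nup43 overlaps Pcmt1, whose log2FC was 0.08. Its ring partners Nup85, Nup160, Nup107 and Nup37 had log2FCs of 0.46, 0.36, 0.27 and -0.11, and none was called.

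No member of the membrane ring, the central channel, the cytoplasmic filaments or the nuclear basket (here Nup153 alone) was called. Nup62, which lines the central channel, had a log2FC of 0.43 (edgeR adjusted p = 0.015), and the membrane nucleoporin Ndc1 of 0.48 (edgeR adjusted p = 0.024). Both had NRG1 samples wholly above mock. Ranbp2, the large filament protein on which Rangap1 is docked, was at 407.5, 309.3 and 255.6 CPM in mock and 332.5, 305.9 and 281.6 CPM in NRG1 samples. Its groups overlapped, with a log2FC of -0.06 (SE 0.13, edgeR adjusted p = 0.78) that became 0.07 without pair 1. Some members overlap another gene in the GRCr8 annotation. Pom121 (log2FC 0.14) overlaps Nsun5, which was called higher at 0.84 (edgeR adjusted p = 0.00083), and Xpo7 (0.45) overlaps Dok2, at 0.84 (edgeR adjusted p = 0.03). Nup62 overlaps Atf5, at 0.005. The strand setting of the counting is not given in the sources used here, so reads of such neighbours may not be told apart.

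**Figure D3:**
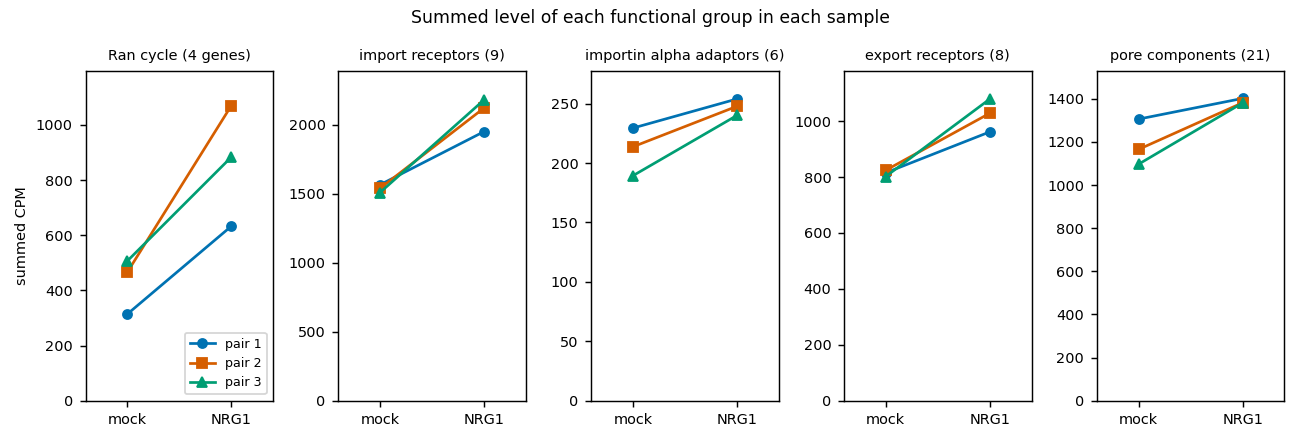
Summed CPM (y axes, from 0) of the genes of each role in mock and NRG1 samples, with lines joining the samples of a pair. Pore components comprise 21 nucleoporin genes. The Ran cycle sum about doubles in each pair (2.02, 2.30 and 1.75-fold), while the sum of the pore components stands at 1.07, 1.19 and 1.26-fold.

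Summed by role, the import receptors were at 1564.4, 1538.6 and 1508.1 CPM in mock and at 1950.0, 2121.4 and 2180.3 CPM in NRG1 samples, which is 1.25, 1.38 and 1.45-fold in pairs 1, 2 and 3. The sums of the export receptors were 1.18, 1.25 and 1.35-fold those in mock, and those of the importin alpha genes 1.11, 1.16 and 1.27-fold. Parts of the pore differed. The inner ring sum was 1.30, 1.66 and 1.51-fold, and that of the cytoplasmic filaments, Ranbp2 included, 0.91, 1.05 and 1.15-fold. Sums of the other pore parts lay between 1.03 and 1.41-fold. In these sums long and abundant transcripts weigh most, and an exact paired permutation test over 3 pairs cannot give a p below 0.25. Ranbp10, which binds Ran but is known as a scaffold protein and not as a carrier, lay on the other side of 0. It was at 93.1, 96.03 and 90.1 CPM in mock and 66.9, 62.0 and 73.5 CPM in NRG1 samples, and its log2FC of -0.46 (SE 0.12, edgeR adjusted p = 0.013) lay just outside the threshold.

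A list of 28 further pore and transport genes with other symbols, all of which were tested, held 2 called genes, both higher. Their share, 7.14%, was near the 6.31% of all genes called higher and is no result about the list. Alyref, an adaptor for mRNA export, had a log2FC of 0.62 (SE 0.13, edgeR adjusted p = 0.0029), and Nutf2, which brings Ran back into the nucleus, of 0.55 (SE 0.12, edgeR adjusted p = 0.0061). In both genes the levels of the groups overlapped, although each pair was higher with NRG1. None was called lower by edgeR or DESeq2, and no gene of the list was lower at an unadjusted p under 0.05 in edgeR. The median log2FC of the list was 0.14. The mRNA exporter Nxf1 was at -0.01 and the basket protein Tpr at 0.03, with SEs of 0.12 and 0.13. Rangrf, another Ran-binding factor, reached 0.52 but an edgeR adjusted p of only 0.044.

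**Figure D4:**
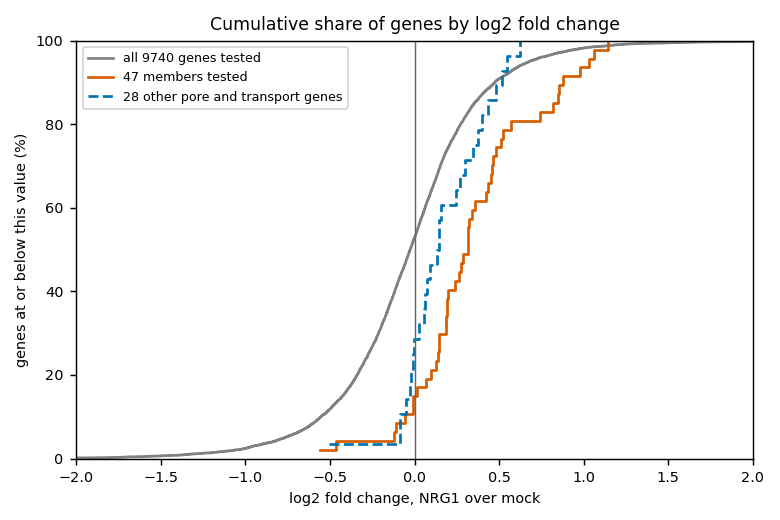
Cumulative share of genes (y axis, %) against log2FC of NRG1 over mock (x axis, without its outer ends) for all 9740 genes tested, the 47 members tested and the 28 other pore and transport genes. The members' curve crosses 50% at 0.31, that of the other list at 0.14 and that of all genes at -0.03.

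RefSeq promoter windows, from 250 bases before to 50 bases after the annotated start of a gene in GRCr8, were found for 42 of the 49 members, 10 of them called. They were searched on both strands for CACGTG, the E-box bound by MYC and related factors, and for CCGGAAG, a core bound by ETS factors. The E-box letters stood in 5 of the 42 windows (11.9%), against 9.67% of the 7479 windows of genes tested and 6.42% of all 33469 windows. They stood in 2 of the 10 windows of called members, those of Ran and Ipo4, and in those of Ipo7, Nup54 and Ranbp2, which were not called. The ETS letters stood in 6 of the 42 windows (14.3%), against 19.3% for genes tested. Of the 10 windows of called members, 1 held them, that of Ipo4, where they are not marked below. The windows below show the E-box in capitals in both genes that held it and rose and in Ranbp2, which held it and was not called, and that of Rangap1, which rose and does not hold it. In Ran the motif begins 190 bases before the start (chr12:33314241-33314540, minus strand), in Ranbp2 143 bases before it (chr20:26985064-26985363, plus strand), and in Ipo4 at base 12 after it (chr15:33097192-33097491, minus strand). The Rangap1 window is chr7:115130515-115130814 on the minus strand. A match describes these letters and was not tested as a binding site.
Ran: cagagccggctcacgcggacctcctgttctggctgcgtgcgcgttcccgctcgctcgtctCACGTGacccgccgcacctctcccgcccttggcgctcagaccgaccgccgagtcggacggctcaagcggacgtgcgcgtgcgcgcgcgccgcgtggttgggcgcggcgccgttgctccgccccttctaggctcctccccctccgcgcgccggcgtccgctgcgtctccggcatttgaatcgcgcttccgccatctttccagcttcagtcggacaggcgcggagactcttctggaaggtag
Ipo4: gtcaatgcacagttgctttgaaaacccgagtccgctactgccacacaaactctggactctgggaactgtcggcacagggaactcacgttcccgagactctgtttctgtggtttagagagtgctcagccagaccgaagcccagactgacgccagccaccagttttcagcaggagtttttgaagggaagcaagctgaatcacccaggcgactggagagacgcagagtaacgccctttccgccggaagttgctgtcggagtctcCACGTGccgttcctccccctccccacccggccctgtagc
Ranbp2: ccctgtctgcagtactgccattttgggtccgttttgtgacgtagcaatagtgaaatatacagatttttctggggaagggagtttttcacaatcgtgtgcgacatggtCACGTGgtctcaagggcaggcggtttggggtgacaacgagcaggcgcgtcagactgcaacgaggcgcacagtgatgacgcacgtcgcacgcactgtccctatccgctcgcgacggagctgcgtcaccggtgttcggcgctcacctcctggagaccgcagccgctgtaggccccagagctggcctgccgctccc
Rangap1: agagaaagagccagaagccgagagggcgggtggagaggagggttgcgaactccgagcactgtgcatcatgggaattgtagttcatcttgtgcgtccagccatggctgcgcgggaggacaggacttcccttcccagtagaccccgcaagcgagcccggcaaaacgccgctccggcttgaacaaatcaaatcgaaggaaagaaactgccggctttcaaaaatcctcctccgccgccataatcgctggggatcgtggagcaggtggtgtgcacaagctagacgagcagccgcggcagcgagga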

How the data were processed

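RNA of 6 samples was analysed, with group and pair number taken from the sample titles. The authors mapped reads to rn5 with TopHat2 2.0.10 and deposited raw counts, made with HTSeq for each RefSeq gene. Summary lines for reads outside genes, in several genes or aligned in several places, 50.1% to 53.0% of each file, were kept out. Reads with several alignments made up 24.5% to 29.9%, so levels of genes with near-identical copies are uncertain.

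Genes were filtered with filterByExpr of edgeR 4.0.16 (R 4.3.3, minimum count 10), scaled by TMM and tested by quasi-likelihood with the pair as a block, which the study's paired preparations call for, and Benjamini-Hochberg adjustment over 9740 genes. Each standard error was derived from the fitted change and its F statistic. Log2 ratios of pairs used a prior count of 2. DESeq2 1.42.0 was an alternative. Scripts were tested on simulated data. Deviations of same-numbered samples from their group means correlated across genes with r of 0.91, 0.67 and 0.81. Between samples of pairs 2 and 3, r was also positive, at 0.514 and 0.512, while between pair 1 and the others it lay from -0.80 to -0.71. These values thus set pair 1 apart more clearly than they separate pairs 2 and 3. The numbers mark independent preparations. Every 2 samples differed by more than sampling noise.

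Members, lists and thresholds were chosen with earlier results of these data known. Named with values per sample were all members called, and Ran, Rcc1, Rangap1, Ranbp1, Ranbp2, Kpnb1, Kpna2, Cse1l and Xpo1 in any case. Ranbp10, the remaining members named and the promoter motifs were chosen after their values were seen. Intervals for counting error were not computed, since replicates were available. One gene of the marker lists is not reported here.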

Additional observations from a re-analysis of the deposited data

How the results depend on the processing

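The replicate block changed the calls most. With no replicate block edgeR called 0 members higher instead of 12, 0 past both thresholds instead of 3 and 0 of the other pore and transport genes instead of 2, with the smallest adjusted p of any member at 0.14. It then called 0 of all 9740 genes, so the loss was not particular to the members. An analysis chosen after seeing the data, DESeq2 with no replicate block, called 3 members higher, 0 past both thresholds and 0 of the other genes. Of the 12827 genes it tested, 0.897% were called higher. With the block, DESeq2 called 12 members higher, of which 10 were shared with edgeR, against 4.34% of the 13129 genes it tested. The low-count filter was not applied before DESeq2, so its shares are over more genes than the 9740 of edgeR and are not directly comparable. Without one pair, from 9 to 11 members were called higher, 0 lower and from 2 to 4 past both thresholds higher with 0 lower, and from 1 to 3 of the other genes higher. By adjusted p alone, from 4.02% to 5.94% of all genes were then called higher and from 2.49% to 6.05% lower. Shares of all genes past both thresholds were not computed for these fits, so the counts past both have no background here. The median log2 fold change of the members lay between 0.29 and 0.38 over all settings that gave one.

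With no low-count filter 1 member, Ranbp10, was called lower, against 6.53% of all genes. Likewise 1 member was called lower at an adjusted p of at most 0.05. There 18 members and 7 of the other genes were called higher, against 11.5% of all genes higher and 11.7% lower. The sign of Xpo1 turned in DESeq2 with the block (0.0074), with RLE normalization (0.00012) and without pair 1 (from -0.11 to 0.16 without one pair), and that of Ranbp2 without pair 1 (from -0.13 to 0.065 without one pair), none of them called. The cause was not tested. RLE normalization and robust empirical Bayes kept the 12 calls and added Xpo5, with 6.83% and 6.52% of all genes called higher. Depth limited the rarest members most: Nup210l and Pom121l2 were not tested, and Nup210 had a standard error of 0.49.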

Other observations

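Ratios of 2 genes within a sample do not depend on library size. They were chosen after the values were seen and have no test. The count of Kpnb1 per count of Tnpo1 was 0.52, 0.74 and 0.96 in the mock cultures of pairs 1, 2 and 3. In their NRG1 counterparts it was 0.98, 1.37 and 1.53, so that importin beta gained on transportin in each pair, by 1.904, 1.86 and 1.59-fold. The count of Rangap1 per count of Ranbp2, its docking protein at the pore, was 0.21, 0.45 and 0.70 in mock and 0.54, 1.02 and 1.23 in NRG1 samples, a shift of 2.58, 2.27 and 1.75-fold. Both ratios were lowest in pair 1 within each group. The ratio of Ran to Rangap1 shifted by 1.00, 1.082 and 0.87-fold, so both genes changed by similar factors within a pair. The summed level of 8 proliferation markers was 173.3 to 209.5 CPM in mock and 176.3 to 253.7 CPM in NRG1 samples, which overlap, and its relation to the transport genes was not tested.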
